A study of Mus musculus with 47 samples.

Results

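The 3 mouse T-cell tumours labelled olig1-LMO1 double transgenic were compared with the 5 tumours labelled Tal1 transgenic (2 tumours) or Tal1-LMO2 double transgenic (3 tumours). They are 8 of 47 tumours, from 14 lymphoma-prone backgrounds, whose total RNA was measured on Affymetrix arrays, with 1 array per tumour. The members were taken from the sample titles. The 5 tumours of the last 2 labels are called the Tal1-side tumours below. All 8 tumours are described as T-cell lymphoblasts and as TLX1 negative, a trait that the controls of the comparison share. The labels do not give the strain, age or sex of the mice, or the promoter that drives each transgene.

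TAL1 and OLIG1 are basic helix-loop-helix proteins. TAL1 binds DNA as a partner of E proteins such as E2A (*Tcf3*) and HEB (*Tcf12*), at the motif called the E-box, and it lowers the activity of E protein dimers in thymocytes. LMO1 and LMO2 are adaptor proteins that join such dimers to LDB1 and GATA factors, and TAL1, LMO1 and LMO2 are known to drive T-cell leukaemia when expressed out of place. HOX proteins are homeodomain factors of early blood progenitors, work with PBX and MEIS partners, and mostly decline as T cells develop.

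The labels were checked against the named genes. *Lmo1* had signals of 11.1, 18.8 and 34.3 in tumours 1, 2 and 3 labelled olig1-LMO1, against 18.4 and 1.52 in Tal1 and 6.43, 5.83 and 19.2 in Tal1-LMO2 tumours (log2 difference 0.52 ± 0.62 SE, limma adjusted p = 0.74). The highest of the other 39 tumours reached 2526, so the tumours that carry LMO1 in their title did not stand out in *Lmo1*. *Lmo2* was at 56.9, 103 and 105 in tumours labelled olig1-LMO1, against 45.8 and 67.9 in Tal1 and 13.6, 17.3 and 19.8 in Tal1-LMO2 tumours, so the tumours with LMO2 in their title were the lowest of the 8. *Olig1* (1.56, 6.11 and 1.58, against 1.33 to 11.1) and *Tal1* (17.3, 20.3 and 9.84, against 3.98 to 19.1) were below the filter on low signals. Whether these probe sets read the transgenes was not tested. The tumours are called by their labels throughout, and every direction below depends on those labels. *AI506816*, an uncharacterised transcript, was high in all 8 tumours. Its signals were 988, 753 and 864 in tumours labelled olig1-LMO1 and 578 to 859 in Tal1-side tumours. The other 39 tumours had a median of 20.1 but spanned 1.07 to 1117, so their highest signal exceeded all 8. Over the whole series the gene was above the array median in 24 arrays, so a high level was not particular to these 8.

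Of 8810 genes tested with limma, 162 rose (1.84%) and 150 fell (1.7%) in tumours labelled olig1-LMO1 at an adjusted p under 0.05 (Benjamini-Hochberg). These shares are to be read beside every count of called list members below. Differences are on the scale log2(signal + 15.9), where 1 is 2-fold and low genes are understated. Of these 312 genes, 248 had no overlap between the 3 and the 5 values, as did 12.3% of all genes tested. The calls rest on few tumours and on the scaling. The spread was estimated over all 47 tumours, most of them outside the comparison. With the spread taken from the 8 tumours alone, 115 of the 312 calls remained, and 25 of the 56 called genes named here lost theirs. Quantile normalization in place of the deposited scaling gave 47 higher and 55 lower, and 99 of the 312 calls remained. Leaving out tumour 1, 2 or 3 labelled olig1-LMO1 gave 68, 21 or 32 higher and 45, 27 or 33 lower. Of the 56 called genes named here, 25 lost their call against Tal1 tumours alone and 21 against Tal1-LMO2 tumours alone, with fewer arrays in each. Leaving out Tal1 tumour 2 gave 70 lower and leaving out Tal1-LMO2 tumour 2 gave 94 higher. After quantile normalization 300 of the 312 genes kept their direction, and all 312 did in each of the 8 fits without 1 tumour. The 312 were chosen for large differences in these same tumours, so a kept direction is no separate support. In those 8 fits, 45 to 242 of the 312 were still called.

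Both sides were also set beside the mean of the other 11 backgrounds. Tumours labelled olig1-LMO1 differed from it in 97 genes (1.1%), and Tal1-side tumours in 1520 (17.3%). These 2 comparisons share arrays with the main one and rest on 3 and 5 arrays, so their values are only given side by side below. The array medians were 59.6 to 68.5 in tumours labelled olig1-LMO1 and 49.6 to 61.6 in Tal1-side tumours (exact permutation test, two-sided p = 0.0714, smallest possible p = 0.0357). Log2 ratios of 3′ to 5′ signal were also compared. For *Gapdh* they were −0.318 to −0.174 and −0.222 to 0.368 in the same order (exact permutation test, p = 0.107). For *Actb* they were 0.137 to 0.283 and 0.165 to 1.13 (exact permutation test, p = 0.25). Tal1 tumour 1 gave the highest value of both sides in each, 0.368 and 1.13. Other backgrounds reached 2.86 and 2.73. The part of these ratios in fits against Tal1 tumours alone was not tested.

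Promoters of 5 genes are printed here, since each gene is called below and TAL1 and its partners bind E-boxes. Each line holds the 250 bases before the gene's start, 5′ to 3′ along the gene, from RefSeq (build GRCm38.p6), with every CANNTG, the general form of the E-box on either strand, in capitals. *Cd5* lies at chr19:10738975-10739224 on the minus strand, *Id3* at chr4:136143572-136143821 on the plus strand, *Hoxa5* at chr6:52204588-52204837 on the minus strand, *Hoxa7* at chr6:52218574-52218823 on the minus strand and *Hoxc4* at chr15:103034145-103034394 on the plus strand. *Cd4*, *Hoxc6* and *Pbx3* were looked up as well, but their promoters were not found, so nothing is said of their matches.
Cd5: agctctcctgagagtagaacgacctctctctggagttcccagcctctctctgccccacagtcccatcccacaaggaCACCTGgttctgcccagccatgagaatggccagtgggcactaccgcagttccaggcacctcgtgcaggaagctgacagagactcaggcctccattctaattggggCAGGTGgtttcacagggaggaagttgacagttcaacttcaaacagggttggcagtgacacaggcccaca
Id3: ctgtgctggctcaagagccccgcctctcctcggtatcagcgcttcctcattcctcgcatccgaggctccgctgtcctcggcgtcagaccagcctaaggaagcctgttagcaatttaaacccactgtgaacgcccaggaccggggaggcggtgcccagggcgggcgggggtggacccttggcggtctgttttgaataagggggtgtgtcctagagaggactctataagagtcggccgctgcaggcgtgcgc
Hoxa5: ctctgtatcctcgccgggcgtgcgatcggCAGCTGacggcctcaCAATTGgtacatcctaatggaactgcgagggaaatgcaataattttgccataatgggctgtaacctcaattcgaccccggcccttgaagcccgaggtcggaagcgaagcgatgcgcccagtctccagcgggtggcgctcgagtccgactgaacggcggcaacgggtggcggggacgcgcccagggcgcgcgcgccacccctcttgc
Hoxa7: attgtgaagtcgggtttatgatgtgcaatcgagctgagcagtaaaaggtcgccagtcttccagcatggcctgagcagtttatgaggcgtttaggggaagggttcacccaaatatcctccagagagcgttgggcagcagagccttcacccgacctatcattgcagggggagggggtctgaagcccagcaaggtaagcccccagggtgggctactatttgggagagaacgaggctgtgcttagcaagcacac
Hoxc4: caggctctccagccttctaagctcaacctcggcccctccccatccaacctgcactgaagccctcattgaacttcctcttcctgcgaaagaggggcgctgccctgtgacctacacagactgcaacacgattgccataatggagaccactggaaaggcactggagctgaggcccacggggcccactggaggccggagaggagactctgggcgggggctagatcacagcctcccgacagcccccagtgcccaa
The *Cd5* window holds 2 matches, CACCTG and CAGGTG, and the *Hoxa5* window 2, CAGCTG and CAATTG, while the *Id3*, *Hoxa7* and *Hoxc4* windows hold 0. Of 32851 promoters of this length, 66.2% hold at least 1 such match and 31.8% at least 2. A match is a description of the letters and no evidence of binding.

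*Cd4*, *Id3* and *Cd5* were among the 15 largest rises. The 15 largest in each direction were drawn only from called genes whose 3 and 5 values did not overlap. The lack of overlap in these genes is therefore no separate support. *Cd4*, the coreceptor for MHC class II, had signals of 571, 1050 and 1094 in tumours 1, 2 and 3 labelled olig1-LMO1, against 346 and 66.2 in Tal1 and 190, 6.71 and 49.6 in Tal1-LMO2 tumours. All 3 were above all 5, by 3.18 ± 0.70 (SE) on the log2 scale (limma adjusted p = 0.0103). *Id3*, which encodes an inhibitor that holds E proteins off DNA, was at 499, 532 and 457, against 55.3 and 39.1 in Tal1 and 16.3, 27.7 and 197 in Tal1-LMO2 tumours (2.97 ± 0.70, limma adjusted p = 0.0161). The 3 levels of *Id3* are close to each other, and 4 of the 5 Tal1-side tumours lie far below the fifth. *Cd5*, a surface protein that dampens T-cell receptor signals and whose promoter is shown above, was at 394, 486 and 503, against 15.5 and 59.5 in Tal1 and 45.2, 43.8 and 266 in Tal1-LMO2 tumours (2.65 ± 0.73, limma adjusted p = 0.0337). Its groups did not overlap either.

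Beside the other backgrounds, these genes were low in Tal1-side tumours. *Cd4* differed by 1.08 ± 0.58 in tumours labelled olig1-LMO1 (limma adjusted p = 0.42) and by −2.09 ± 0.46 in Tal1-side tumours (0.00149). *Id3* differed by 0.79 ± 0.58 (0.574) and by −2.18 ± 0.46 (0.00108), and *Cd5* by 1.05 ± 0.61 (0.454) and −1.60 ± 0.48 (0.0189), in the same order. The medians of the other 39 tumours were 580 for *Cd4*, 314 for *Id3* and 269 for *Cd5*. The call for *Cd4* was lost without tumour 2 or tumour 3 labelled olig1-LMO1 (log2 differences 3.04 and 3.01, adjusted p = 0.0604 and 0.0621), and against Tal1 tumours alone (2.36, adjusted p = 0.151). That for *Id3* was lost without any 1 of the 3 (up to 0.0725), and that for *Cd5* in 7 of the 8 fits without 1 tumour (up to 0.13), all but the one without Tal1-LMO2 tumour 3. After quantile normalization *Cd4* and *Id3* were still called (2.95 and 2.69), and *Cd5* was not (2.41, adjusted p = 0.0901).

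Genes induced by receptor signals were among the rises. *Nab2*, a corepressor of EGR factors, was at 206, 490 and 308, against 18.4 and 20.2 in Tal1 and 16.5, 82.5 and 160 in Tal1-LMO2 tumours (2.50 ± 0.67, limma adjusted p = 0.0282). *Nr4a1*, an orphan nuclear receptor induced by T-cell receptor signals, was at 288, 965 and 794, against 55.8 and 64.6 in Tal1 and 230, 145 and 241 in Tal1-LMO2 tumours (2.13 ± 0.60, limma adjusted p = 0.0368). Both genes were chosen as having no overlap between the groups, and tumour 1 was the lowest of the 3 for both. *Egr1*, an immediate early factor, was at 670, 1778 and 1697, against 87.9 to 563 (2.22 ± 0.71, limma adjusted p = 0.0686, not called). *Zbtb7b*, the factor of the CD4 lineage, was at 97.5, 28.7 and 208, against 5.13 to 17.2 (2.07 ± 0.64, limma adjusted p = 0.0603, not called). Of 23 tested immediate early and AP-1 genes, 1 was called higher, beside 1.84% of all genes. Of the 23, 20 lay above 0, with a median of 0.48 beside 0.05 over all genes tested. After quantile normalization 0 of the 23 were called and the median was 0.34. *Nab2* lost its call in 6 of the 8 fits without 1 tumour (adjusted p up to 0.168) and *Nr4a1* in 5 (up to 0.225), each time with a difference of at least 1.80.

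**Figure D1:**
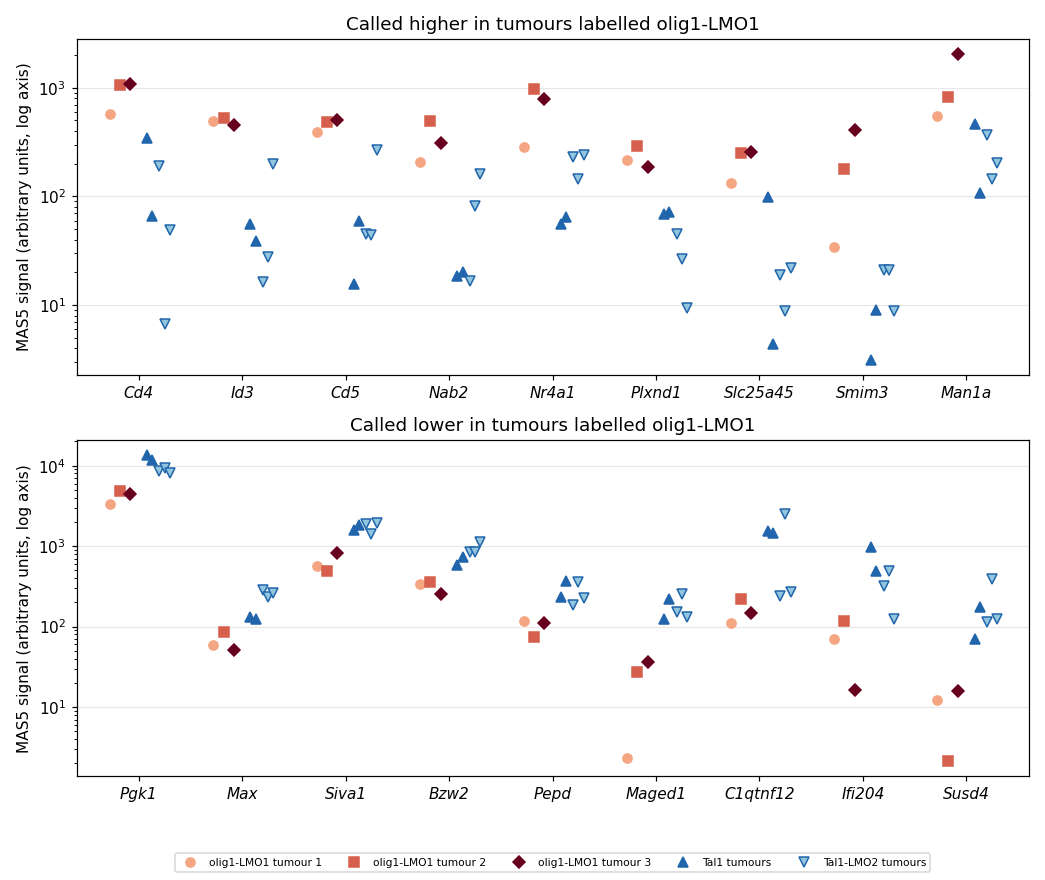
MAS5 signal (log axis) of 9 genes called higher and 9 called lower in tumours labelled olig1-LMO1, with 1 point per tumour; the 3 tumours labelled olig1-LMO1 stand left of the 2 Tal1 and 3 Tal1-LMO2 tumours. Most of the genes were chosen as having no overlap between the 3 and the 5 points; *Pgk1* lies at 3378 to 4869, against 8149 to 13416.

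T-cell receptor and lineage genes as a whole showed few calls, beside 1.84% of all genes called higher and 1.7% lower. Of 20 receptor and proximal signalling genes 1 (*Cd5*) was called, 9 lay above 0 and the median was −0.03. Of 16 double positive thymocyte genes 2 (*Cd4* and *Plxnd1*) were called higher. In that list 8 lay above 0 and 8 below, and the median was 0.04. *Cd3e*, a receptor chain, was at 1779, 1366 and 2364, against 1988 to 2737. *Cd6*, a relative of *Cd5*, was at 295, 431 and 404, against 2.96 to 299 (1.95 ± 0.79, limma adjusted p = 0.183). *Bcl11b*, a T-lineage commitment factor, was at 820, 791 and 1039, against 1588 to 2963 (−1.40 ± 0.63, limma adjusted p = 0.235). Its groups did not overlap, and it was not called. Of 18 E protein, Id and target genes, 2 were called (*Cd4* and *Id3*). *Tcf3* was at 701, 673 and 763, against 443 to 1010, and *Tcf12* at 2075, 3289 and 1851, against 2473 to 4023. *Id2*, another inhibitor, was at 648, 707 and 312, against 212 to 530. None of these was called, at 0.09 for *Tcf3*, −0.42 for *Tcf12* and 0.56 for *Id2*. Other probe sets, not used in the fit, gave 0.92 and 0.54 for *Tcf3*, 0.30 for *Tcf12* and 1.14 and −0.15 for *Id2*. Of 16 tested LMO and helix-loop-helix complex genes 0 were called, with a median of 0.38. *Lmo4* (557, 680 and 595, against 110 to 1219) and *Lyl1* (55.5, 62.8 and 47.6, against 32.3 to 58.7), a relative of *Tal1*, were not called either.

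The HOX genes separated the tumours labelled olig1-LMO1 from each other. *Hoxc4* was at 1.95 in tumour 1, 315 in tumour 2 and 710 in tumour 3, against 2.17 and 12.3 in Tal1 and 1.59, 6.42 and 10.6 in Tal1-LMO2 tumours. *Hoxa7* was at 4.67, 109 and 428, against 2.94 to 5.28, and *Hoxa5* at 1.7, 185 and 208, against 2.29 to 20.2. In these 3 genes tumours 2 and 3 are far above all Tal1-side tumours, and tumour 1 is among them or below. *Hoxc6* was at 41.5, 179 and 536, against 17.2 to 50.8. *Hoxc4*, *Hoxa5* and *Hoxc6* in tumours 2 and 3 also exceeded all other 39 tumours, whose highest signals were 30.7, 83.5 and 125.

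Tumours 2 and 3 differed in which HOX genes were high. *Hoxa9* was at 22, 166 and 50.6 in tumours 1, 2 and 3, and a second *Hoxa9* probe set, not used in the fit, read 4.9, 954 and 24. 4 HOX genes below the filter are named after their values were seen. *Hoxa10* read 194 and *Hoxa11* 137 in tumour 2, against at most 10.2 and 22.4 in tumours 1 and 3. *Hoxc8* read 472 and *Hoxc5* 192 in tumour 3, against at most 26.1 and 16.1 in tumours 1 and 2. *Hoxd8* was at 21, 23.9 and 571, and the Tal1-side tumours spanned 4.23 to 90.6. Of these genes, *Hoxa9*, *Hoxa10* and *Hoxa11* were highest in tumour 2, and *Hoxc8*, *Hoxc5* and *Hoxd8* in tumour 3. *Hoxb4* was near equal, at 59, 52.7 and 35.2, against 4.15 to 54.

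Of 39 HOX genes listed, 31 are on the array and 7 passed the filter. *Hoxc4* exceeded the array median in 2 arrays of 47, and *Hoxa5*, *Hoxa7*, *Hoxa9* and *Hoxb4* in 3 each, so a gene could enter the test through the few tumours where it was high, and the split of tumours was itself drawn from HOX levels. Of the 7, 4 were called (*Hoxa5*, *Hoxa7*, *Hoxc4* and *Hoxc6*), a count that supports nothing for this reason. The fitted differences over all 3 tumours are likewise a description: 2.88 ± 0.55 for *Hoxc4*, 2.40 ± 0.49 for *Hoxa7*, 1.97 ± 0.39 for *Hoxc6*, 1.83 ± 0.49 for *Hoxa5*, 1.17 ± 0.36 for *Hoxa9*, 1.00 ± 0.37 for *Hoxb4* and 0.99 ± 0.72 for *Hoxd8*. With tumour 1 as the only tumour of its label, *Hoxc4* gave −0.31, *Hoxa5* −0.56 and *Hoxd8* −0.38. *Hoxc4* gave 4.47 without tumour 1, 2.37 without tumour 2 and 1.80 without tumour 3. The calls of *Hoxa5*, *Hoxa7* and *Hoxc4* were lost without tumour 2 and without tumour 3, and that of *Hoxc6* without tumour 3 (adjusted p up to 0.294). With the spread taken from the 8 arrays alone, 0 of the 7 were called.

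**Figure D2:**
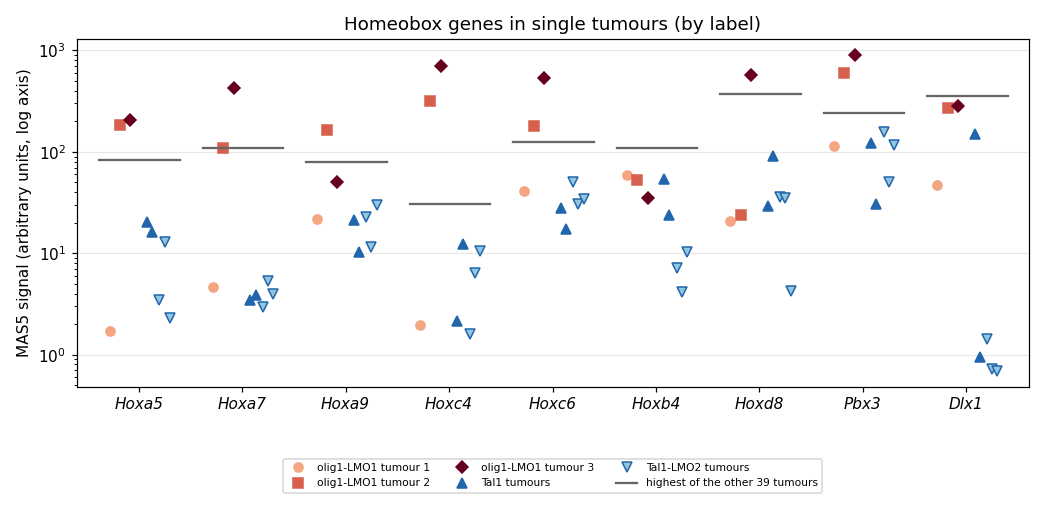
MAS5 signal (log axis) of 7 HOX genes, *Pbx3* and *Dlx1*, with 1 point per tumour; tumours labelled olig1-LMO1 stand left of the Tal1 and Tal1-LMO2 tumours, and a line marks the highest of the other 39 tumours. Tumours 2 and 3 labelled olig1-LMO1 lie above all Tal1-side points in *Hoxa5*, *Hoxa7*, *Hoxc4*, *Hoxc6*, *Pbx3* and *Dlx1*, and tumour 1 does not in any of these 6 genes.

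Of 5 tested HOX cofactors, only *Pbx3* was called, beside 1.84% of all genes called higher, and it was high in the same tumours. *Pbx3*, a HOX cofactor, was at 115 in tumour 1, 600 in tumour 2 and 909 in tumour 3, against 121 and 30.9 in Tal1 and 157, 50.8 and 116 in Tal1-LMO2 tumours (2.08 ± 0.50, limma adjusted p = 0.0167). It was also higher than in the other 11 backgrounds (2.18 ± 0.41, limma adjusted p = 0.00276). *Dlx1*, a homeobox gene outside the HOX clusters, was at 47.4, 273 and 282, against 150 in Tal1 tumour 1 and 0.691 to 1.42 in the other 4 (2.73 ± 0.46, limma adjusted p = 0.00163). *Dlx1* kept its call in all 8 fits without 1 tumour (adjusted p at most 0.0326), although tumour 1 lay below Tal1 tumour 1. It lost the call with the 8 arrays alone and against Tal1 tumours alone (1.74, 0.0943), and gave 3.38 against Tal1-LMO2 tumours alone (0.000416). *Mab21l2*, a developmental gene, was at 15.8, 217 and 368, against 7.98 to 20.9. Like most HOX genes it did not pass a filter of 6 arrays, so its difference of 2.19 ± 0.45 is a description. The call of *Pbx3* was lost without tumour 2 and without tumour 3 (adjusted p up to 0.159). It was also lost with the 8 arrays alone.

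Tumour 1 was then set beside tumours 2 and 3 across all genes, as a description with no test, since 1 side is 1 tumour and HOX values drew the split. Over all tested genes, the log2 values of tumours 2 and 3 correlated at 0.930 (Pearson). Those of tumour 1 correlated at 0.954 with tumour 2 and at 0.940 with tumour 3. Tumours 2 and 3 were thus the least alike pair, and the split is not one of whole profiles. Only tumour 1 was set apart in this way, and no count was made for tumour 2 or tumour 3. Tumour 1 lay at least 4-fold below both others in 15 genes (0.17%) and at least 4-fold above both in 6 (0.0681%). Beside *Hoxa5*, *Hoxa7*, *Hoxc4*, *Pbx3*, *Dlx1* and *Mab21l2*, it was low in *Adam12*, a metalloprotease (28.4, against 519 and 633), *Ptprk*, a receptor phosphatase (41.5, against 415 and 429), and *Kit*, the stem cell factor receptor (18.2, against 151 and 142). *Qser1* was at 5.22, against 189 and 251, with 148 to 213 in Tal1-side tumours, so tumour 1 stood apart from all 7. *Igf2bp3*, an RNA-binding protein of fetal progenitors, was at 15.2, against 204 and 528. *Lsp1* was at 91.8, against 1100 and 483, and *S100a8*, a myeloid protein, at 31.1, against 184 and 1709.

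Genes of the X and Y chromosomes moved with the same split. *Xist*, transcribed from the inactive X, was at 35 in tumour 1, against 3300 and 3602 in tumours 2 and 3. *Eif2s3y* was at 258, against 7.52 and 0.522, and *Kdm5d* at 93.2, against 5.74 and 9.31, and both genes are Y-linked. Among Tal1-side tumours *Xist* was at 32.6 in Tal1 tumour 2 and 20.3 in Tal1-LMO2 tumour 3 and at 2576 to 3252 in the other 3, so the comparison of all 8 mixes both patterns on each side. The part of this in the HOX difference was not tested. The other 4 genes at least 4-fold above were *Shisa2* (111, against 0.642 and 1.04), *Nppa* (317, against 29.8 and 13.7), *Ak4* (207, against 14.3 and 26.4) and *Ckm* (200, against 10.5 and 27.8). *Fbxo33*, an F-box gene, was at 1627 in tumour 1, against 376 and 482, and 140 to 519 in Tal1-side tumours. Its difference from the Tal1 side was 1.24 ± 0.34 over the 3 tumours (limma adjusted p = 0.0335) and 0.61 without tumour 1 (0.398), so the call rests on tumour 1.

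Tumour 3 stood apart in Notch and beta-selection genes. *Notch1*, the receptor that starts T-cell commitment, was at 1840 and 1603 in tumours 1 and 2 and 160 in tumour 3, against 2188 and 2464 in Tal1 and 3508, 3803 and 2662 in Tal1-LMO2 tumours. *Dtx1*, a Notch target, was at 1592, 2331 and 27.4, against 920 to 3236. *Rag1*, of the recombinase that cuts receptor genes, was at 1555, 1430 and 104, against 1471 to 2411. In these 3 genes tumour 3 was the lowest of the 8. *Ptcra*, the pre-T-cell receptor chain, was at 604, 333 and 26.4, with one Tal1-LMO2 tumour as low (25.6 to 599). *Il2ra*, a marker of the stage before beta selection, was at 81, 848 and 0.699, against 78.4 to 1284. *Notch3* was at 589, 805 and 172, against 725 to 821, and *Hes1*, a Notch target, at 167, 148 and 46.2, against 15.3 to 456.

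**Figure D3:**
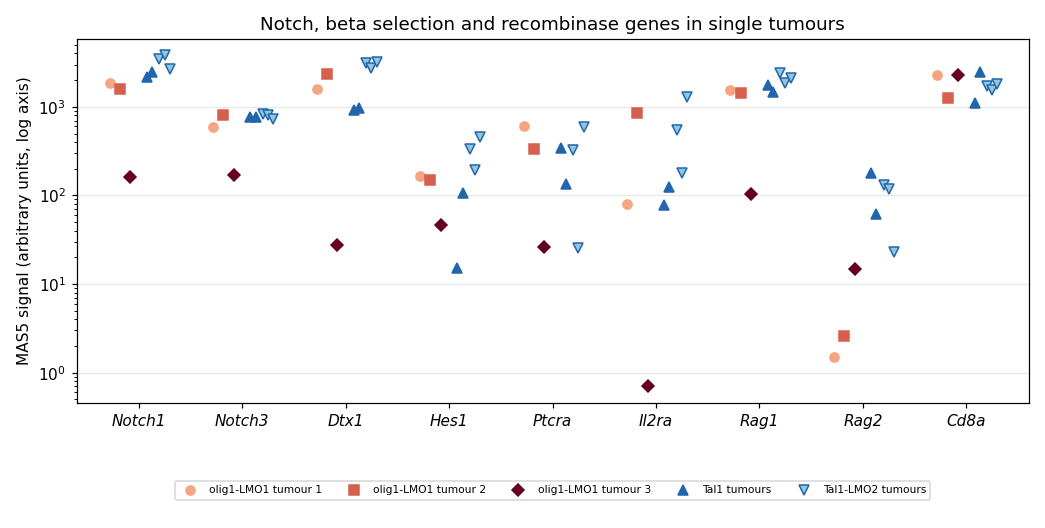
MAS5 signal (log axis) of 9 Notch, beta-selection, recombinase and coreceptor genes, with 1 point per tumour and tumours labelled olig1-LMO1 left of Tal1 and Tal1-LMO2 tumours. Tumour 3 labelled olig1-LMO1 is the lowest of the 8 in *Notch1*, *Notch3*, *Dtx1*, *Il2ra* and *Rag1*, whereas in *Rag2* tumours 1 and 2 are lower still and in *Cd8a* it is not low.

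None of these genes was called between the sides. The differences were −1.83 ± 0.79 for *Notch1* (limma adjusted p = 0.213), −1.81 ± 1.13 for *Dtx1* (0.432) and −1.56 ± 1.11 for *Rag1* (0.511), and without tumour 3 they were −0.73, 0.02 and −0.35. *Rag2*, the partner of *Rag1*, was at 1.5, 2.61 and 14.9 in the 3 tumours, against 23 to 181, with no overlap (−2.27 ± 0.81, limma adjusted p = 0.116). Of 26 tested Notch pathway genes 0 were called and 14 lay above 0. Of 14 genes from the double negative stage to beta selection 0 were called, with a median of −0.41, and of 14 early progenitor genes 0 were called, 11 lay above 0 and the median was 0.78. The mean of the double negative list, centred on all 47 tumours, was 0.18 and 0.86 in tumours 1 and 2, −1.19 in tumour 3 and −0.03 to 0.83 in Tal1-side tumours. *Cd8a*, the other coreceptor, was at 2259, 1249 and 2272, against 1095 to 2482. *Kit* differed by 1.55 ± 0.85 (limma adjusted p = 0.348).

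Of the 56 called genes named here, *Pgk1* was the only one called in all 22 alternative settings. *Pgk1*, a glycolytic enzyme, was at 3378, 4869 and 4493 in tumours 1, 2 and 3 labelled olig1-LMO1, against 13416 and 11834 in Tal1 and 8617, 9354 and 8149 in Tal1-LMO2 tumours (−1.26 ± 0.15, limma adjusted p = 7e-06). Quantile normalization reduced the difference to −0.73 (limma adjusted p = 0.00969, with 9.8e-08 to 0.0312 over the alternatives). Beside the other 11 backgrounds it differed by −0.05 ± 0.13 in tumours labelled olig1-LMO1 (limma adjusted p = 0.899) and by 1.21 ± 0.10 in Tal1-side tumours (1.12e-10). It was the only member called of 19 tested genes of glycolysis and glucose transport, beside 1.7% of all genes called lower. The other 18 included *Slc16a1*, a lactate transporter (1.15 ± 0.41, limma adjusted p = 0.115), and the list's median was −0.26.

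*Max*, the partner through which MYC binds DNA, was at 58.7, 84.6 and 51.1, against 131 and 125 in Tal1 and 286, 236 and 263 in Tal1-LMO2 tumours (−1.42 ± 0.34, limma adjusted p = 0.0168). It fell, and it was the 1 member called of 9 tested in the MYC and MAX network, beside 1.7% of all genes called lower. The difference was −0.86 against Tal1 tumours alone (adjusted p = 0.348) and −1.80 against Tal1-LMO2 tumours alone (0.0081). *Myc* itself was at 1353, 1166 and 897, against 628 to 1345 (0.36 ± 0.36, limma adjusted p = 0.681). *Mga*, another MAX partner, was at 483, 526 and 296, against 97.2 to 349 (1.04 ± 0.33, limma adjusted p = 0.0679). *Max* lost its call without tumour 1 and without tumour 3 labelled olig1-LMO1 (−1.59 to −1.30 over the 8 fits, adjusted p up to 0.0921).

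The other large falls had mixed roles. *Maged1*, a MAGE family gene, was at 2.32, 27.5 and 35.9, against 123 to 252 (−2.42 ± 0.53, limma adjusted p = 0.00964). *Susd4*, a complement regulator, was at 12.4, 2.13 and 15.7, against 69.7 to 391 (−2.71 ± 0.65, limma adjusted p = 0.0168). *Siva1*, a proapoptotic protein, was at 565, 497 and 821, against 1414 to 1952 (−1.47 ± 0.41, limma adjusted p = 0.0358). These 3 genes were chosen as having no overlap between the groups. *Pepd*, a peptidase for proline dipeptides, was at 119, 74.3 and 110, against 188 to 366 (−1.29 ± 0.26, limma adjusted p = 0.00641). *H1f10*, a linker histone, was at 35.5, 12.8 and 136, against 141 to 1027 (−2.78 ± 0.77, limma adjusted p = 0.0334), and *Ifi204*, an interferon-inducible gene, at 69.3, 117 and 16.3, against 125 to 981 (−2.54 ± 0.72, limma adjusted p = 0.0389). In both the nearest values of the groups almost met. *Ifi204* also belongs to a list of MHC class I, Ifi200 and marker genes that are polymorphic between strains. Of its 14 tested members, 1 was called higher (*Cd5*) and 1 lower (*Ifi204*), beside 1.84% and 1.7% of all genes. Of the 14, 7 lay above 0 and 7 below. The labels do not give the strain, and its part in these 2 genes was not tested. The remaining members of the 15 largest falls were *C1qtnf12*, *Rps6kl1*, *Mboat1*, *Zfp982*, *Ccdc91*, *Serf1*, *Kyat3* and *Bzw2*, at −2.31 to −1.33. Other probe sets, not used in the fit, gave −0.24 for *Bzw2* and −0.58, −0.41 and 0.50 for *Serf1*, so these 2 falls depend on the probe set. Those of *C1qtnf12* gave −1.49 to −0.68, and that of *Ccdc91* gave −1.05. For *C1qtnf12* the signals were 111, 218 and 148, against 1522 and 1464 in Tal1 and 239, 2502 and 272 in Tal1-LMO2 tumours, so the gap was narrow for 2 of the 5.

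Many of these calls depended on single tumours. *Maged1* lost its call without tumour 1 labelled olig1-LMO1 (adjusted p = 0.0851, −1.96), and *Pepd*, *Zfp982* and *Ccdc91* lost theirs without tumour 2 (up to 0.0828). *Susd4* lost it without any 1 of the 3 (up to 0.101). *Siva1*, *H1f10*, *Ifi204*, *C1qtnf12*, *Rps6kl1*, *Mboat1*, *Serf1*, *Kyat3* and *Bzw2* lost it in 4 to 7 of the 8 fits without 1 tumour (up to 0.292). *Susd4*, *Ccdc91*, *Kyat3* and *Pepd* were also called lower in tumours labelled olig1-LMO1 than in the other 11 backgrounds, by −2.05 ± 0.54, −1.39 ± 0.29, −1.32 ± 0.31 and −0.89 ± 0.22 (limma adjusted p = 0.0473, 0.0085, 0.023 and 0.0264).

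Ribosomal protein genes were lower together under the deposited scaling. Of 26 tested, 16 were called lower and 0 higher, with a median of −0.63, beside 1.7% of all genes called lower. *Rps3* was at 6709, 7230 and 7231, against 16231 and 17531 in Tal1 and 12390, 12139 and 9976 in Tal1-LMO2 tumours (−0.92 ± 0.14, limma adjusted p = 0.000785). *Rps18* was at 7585, 9481 and 8740, against 11333 to 19718 (−0.81 ± 0.15, limma adjusted p = 0.005), and *Rpsa* and *Rpl35* gave −0.73 ± 0.16 and −0.75 ± 0.17. After quantile normalization 0 of the 26 were called, the median was 0.01, and 14 lay above 0 and 12 below, so the direction of the list depends on the scaling. Under the deposited scaling, 2, 3 and 3 of the 26 were called without tumours 1, 2 and 3 labelled olig1-LMO1. Against Tal1 tumours alone 16 were called (median −0.89), and against Tal1-LMO2 tumours alone 1 (−0.46), and all 26 lay below 0 in these 5 fits. After quantile normalization *Rps3* was at −0.23 and *Rps18* at −0.13. Another probe set of *Rpl35* gave 0.33 under the deposited scaling. The array medians, given above, moved the other way.

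Genes of oxidative phosphorylation showed the same dependence at smaller size. Of 32 tested, 3 were called lower: *Cox7a2* (−0.77 ± 0.16, limma adjusted p = 0.00873) and *Cox5a* (−0.73 ± 0.17, 0.0161), subunits of cytochrome oxidase, and *Ndufa1* (−0.56 ± 0.13, 0.0168), of complex I. The median was −0.30, and 1.7% of all genes were called lower. After quantile normalization 0 were called, 12 lay above 0 and 20 below, and the median was −0.06. *Nme2*, a nucleoside diphosphate kinase and MYC target, was the 1 member called of 28 ribosome biogenesis genes (−0.82 ± 0.16, limma adjusted p = 0.00605), and it too lost its call after quantile normalization (−0.27, adjusted p = 0.335).

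**Figure D4:**
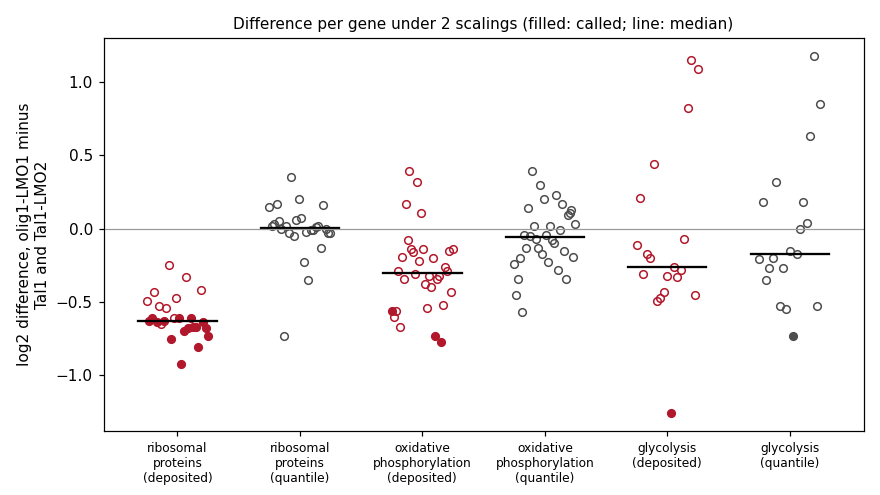
Log2 difference, tumours labelled olig1-LMO1 minus Tal1-side tumours, for each tested gene of 3 lists under the deposited scaling and after quantile normalization; filled points are called and lines are medians. The ribosomal median is −0.63 under the deposited scaling and 0.01 after quantile normalization, where the direction no longer holds, while *Pgk1*, the lowest glycolysis point, is called under both.

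Summed signals of stroma, endothelial and myeloid markers were higher in tumours labelled olig1-LMO1 than in Tal1-LMO2 tumours. The 10 stroma markers summed to 2202, 6827 and 1973 in tumours 1, 2 and 3, against 4267 and 2657 in Tal1 and 231, 472 and 367 in Tal1-LMO2 tumours. The 9 endothelial markers summed to 589, 753 and 755, against 452 and 347 in Tal1 and 232, 193 and 267 in Tal1-LMO2 tumours. The 16 myeloid markers summed to 4149, 6910 and 8796, against 4338 and 6735 in Tal1 and 2452, 2137 and 1222 in Tal1-LMO2 tumours. Of these 3 sums, the endothelial one did not overlap between the 3 and the 5, although *Kdr*, *Tie1*, *Vwf* and *Emcn* were below every array's median, as was *Itgam* among the myeloid markers. The 7 T-cell markers summed to 10947 to 13882, against 12181 to 21019, so the labelled cell type was present in all 8 tumours. In bulk tumours, fewer cells of a type and less RNA per cell cannot be told apart.

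**Figure D5:**
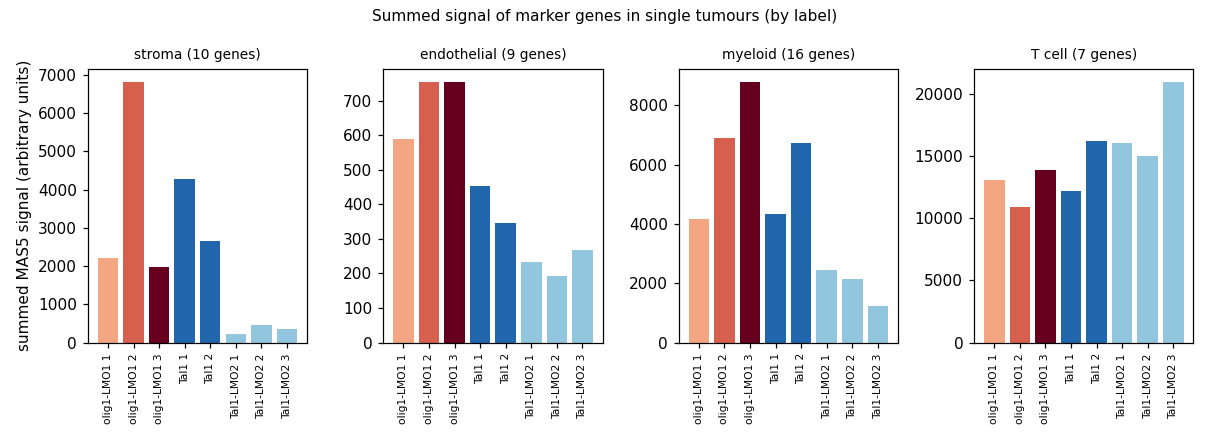
Summed MAS5 signal of the tested markers of 4 cell types, with 1 bar per tumour and tumours labelled olig1-LMO1 left of Tal1 and Tal1-LMO2 tumours. Stroma and myeloid sums are lowest in the 3 Tal1-LMO2 tumours (231 to 472 and 1222 to 2452), and both Tal1 tumours lie within the range of the tumours labelled olig1-LMO1.

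Single markers and other genes carried these differences. *Col3a1*, a collagen, was at 647, 2512 and 468, against 1187 and 488 in Tal1 and 47.5, 102 and 34.6 in Tal1-LMO2 tumours (2.32 ± 0.62, limma adjusted p = 0.0287), and its groups overlapped. *Dcn*, a matrix proteoglycan, was at 484, 899 and 423, against 378 and 406 in Tal1 and 37.1, 91.1 and 18.2 in Tal1-LMO2 tumours (2.21 ± 0.51, limma adjusted p = 0.0135). It was chosen as having no overlap. *Rgs5*, a pericyte regulator of G proteins, was at 189, 306 and 260, against 141 and 109 in Tal1 and 1.84, 14.7 and 1.64 in Tal1-LMO2 tumours (2.54 ± 0.50, limma adjusted p = 0.00605). For *Col3a1*, *Dcn* and *Rgs5* in this order, the differences against Tal1 tumours alone were 0.26, 0.52 and 0.91 (adjusted p = 0.939, 0.798 and 0.559), and against Tal1-LMO2 tumours alone 3.69, 3.34 and 3.63 (0.00276, 0.00117 and 0.00044). *Rgs5* kept its call in all 8 fits without 1 tumour, *Dcn* lost it without tumour 2 labelled olig1-LMO1 and without Tal1-LMO2 tumour 3, and *Col3a1* in 5 of the 8 (adjusted p up to 0.297).

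Of the marker lists, 3 of 10 stroma markers (*Col3a1*, *Dcn* and *Lum*), 1 of 9 endothelial (*Pecam1*) and 2 of 16 myeloid (*C1qb* and *C1qc*) were called higher, beside 1.84% of all genes, and all 10 stroma and all 16 myeloid markers tested lay above 0. Against Tal1 tumours alone 0 stroma and 0 myeloid markers were called at an adjusted p under 0.05, and against Tal1-LMO2 tumours alone 7 and 4. The medians were 1.57, 0.91 and 0.81 on the log2 scale. Other marker lists did not rise. Erythroid, thymic epithelium, dendritic, MHC class II, B cell and NK markers had 0 members called. Of the first 4 of these lists, 0 of 3, 2 of 8, 0 of 4 and 1 of 5 members lay above 0. Their medians were −0.48, −0.26, −0.22 and −0.36. For B cell and NK markers, 3 of 6 and 3 of 5 lay above 0 (medians 0.08 and 0.05). Of 7 T-cell markers 1 (*Cd5*) lay above 0, with a median of −0.39. *Pecam1*, an endothelial adhesion protein, was at 265, 299 and 344, against 98.1 and 32.5 in Tal1 and 117, 65 and 173 in Tal1-LMO2 tumours (1.63 ± 0.39, limma adjusted p = 0.0168). The complement genes *C1qb* and *C1qc* of macrophages gave 1.65 ± 0.40 and 1.59 ± 0.41 (limma adjusted p = 0.0175 and 0.0242), and 0.34 and 0.29 against Tal1 tumours alone. After quantile normalization *Dcn* was still called and the other 5 were not.

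Several of the largest rises were in genes that such cells are known to express. *Gsn*, an actin-severing protein, was at 464, 924 and 1039, against 64.9 to 350 (2.29 ± 0.67, limma adjusted p = 0.0471). *Cd36*, a fatty acid receptor of endothelium and macrophages, was at 198, 554 and 157, against 10.7 to 141 (2.32 ± 0.58, limma adjusted p = 0.0214). *Steap4*, a metalloreductase, was at 69.2, 185 and 121, against 0.385 to 33.9 (2.38 ± 0.52, limma adjusted p = 0.00943). *Anxa1*, a phospholipid-binding protein, was at 346, 873 and 544, against 34.5 to 295 (2.09 ± 0.62, limma adjusted p = 0.0479), and *Plxnd1*, a semaphorin receptor of endothelium and double positive thymocytes, at 217, 292 and 186, against 9.37 to 71.9 (2.15 ± 0.56, limma adjusted p = 0.0247). These 5 genes were chosen as having no overlap between the groups. Each of the 5 lost its call against Tal1 tumours alone, where the differences were 2.00 for *Gsn*, 1.20 for *Cd36*, 1.67 for *Steap4* and 0.94 for *Anxa1* (adjusted p = 0.181 to 0.649), with *Plxnd1* between *Cd36* and *Steap4* (0.304). Against Tal1-LMO2 tumours alone they were 2.48 for *Gsn*, which was not called, 3.06 for *Cd36*, 2.85 for *Steap4*, 2.86 for *Anxa1* and 2.59 for *Plxnd1*. After quantile normalization *Steap4* was still called and the other 4 were not. The part of the marker sums in them, and in *Cd4*, *Id3* and *Cd5*, was not tested. All 5 lost their call in 2 to 7 of the 8 fits without 1 tumour (adjusted p up to 0.256).

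The remaining large rises were *Slc25a45*, *Smim3* and *Man1a*. *Slc25a45*, a mitochondrial carrier, was at 132, 252 and 254, against 97.8 and 4.35 in Tal1 and 18.8, 8.77 and 22.1 in Tal1-LMO2 tumours (2.55 ± 0.51, limma adjusted p = 0.00605). It kept its call in all 8 fits without 1 tumour (adjusted p at most 0.0435) and against either Tal1-side label alone (2.20 and 2.79). Beside the other 11 backgrounds it differed by 0.39 ± 0.42 in tumours labelled olig1-LMO1 and by −2.16 ± 0.33 in Tal1-side tumours (limma adjusted p = 0.718 and 2.52e-05). *Smim3*, a small membrane protein, was at 34.3, 178 and 410, against 3.13 to 21.2 (2.54 ± 0.50, limma adjusted p = 0.00605), again with tumour 1 lowest. *Man1a*, a Golgi mannosidase, was at 555, 831 and 2039, against 108 to 467 (2.06 ± 0.46, limma adjusted p = 0.0103). Both lost their call without tumour 3 (adjusted p = 0.077 and 0.111).

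Apoptosis and cell cycle lists held few calls, beside 1.84% of all genes called higher and 1.7% lower. *Casp8*, the caspase of death receptors, gave 1.06 ± 0.31 (limma adjusted p = 0.0487) and *Birc3*, an inhibitor of apoptosis, 1.12 ± 0.32 (0.0382), the 2 members called of 19. *Casp8* was at 767, 1064 and 809, against 116 to 872, so its groups overlapped. *Birc3* was at 265, 421 and 323, against 75.5 to 206. *Rbl2*, a relative of the retinoblastoma protein, was the 1 member called of 20 cyclin, CDK and inhibitor genes (300, 338 and 533, against 103 to 230; 1.18 ± 0.31, limma adjusted p = 0.0282). *Apc*, a brake on beta-catenin, was the 1 member called of 15 Wnt genes (258, 294 and 258, against 116 to 192; 0.80 ± 0.19, limma adjusted p = 0.0161). Each of these 4 lost its call after quantile normalization (0.64 to 1.00) and in 2 to 6 of the 8 fits without 1 tumour. *Cdkn2a* was at 24.8, 16.1 and 15.8, against 2.36 to 44.1.

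The lists of DNA replication (31 tested), spindle and chromosome segregation (41), p53 target genes (20), T-cell leukaemia tumour suppressors (21), leukaemia oncogenes (22), interferon response (27), cytokine receptors (25), T lineage regulators (20) and mature single positive genes (17) each had 0 members called at an adjusted p under 0.05. Their medians ran from −0.11 for DNA replication to 0.32 for cytokine receptors, beside 0.05 over all genes. Unadjusted p-values under 0.05 were found for 1498 of the 8810 genes.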

How the data were processed

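The authors deposited 1 linear MAS5 signal intensity per probe set and tumour, per the submitters' processing notes, and the deposited arrays share a trimmed mean of 250.063 to 250.129. Of 22690 probe sets, 64 are controls and 20380 have 1 gene symbol; a gene took its probe set of highest mean. Genes above the array median in at least 2 of 47 arrays were kept (8810). limma 3.58.1 in R 4.3.3 was fitted to log2(signal + 15.9), the 25th percentile of all signals, with 14 background means and eBayes with trend, and p-values were adjusted by Benjamini-Hochberg. It was tested on simulated data. The labels do not say that tumours came from separate mice, so p-values measure only the spread between these samples, and the number of arrays limits the precision. Named genes are the 15 largest called differences in each direction with no overlap, a fixed set, the tested HOX genes, at most 4 members per list (those with the smallest p) and the 15 largest gaps of tumour 1 each way. The members and lists were chosen with earlier results of these data known.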

Additional observations from a re-analysis of the deposited data

Results flagged for a closer look

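*Dlx1* had 1 of the 5 Tal1-side tumours far from the rest. Tal1 tumour 1 was at 150 and the other 4 at 0.691 to 1.42, and the gap took 0.981 of the range, above Dixon's limit for 5 values. Chance alone flags about 1 in 20 groups.

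The Tal1-LMO2 and Tal1 tumours, which form the Tal1 side together, differed from each other in 41 of 8810 genes. Of these, 4 were higher and 37 lower in Tal1-LMO2 tumours. The 5 flagged among the genes named here follow. The log2 difference, Tal1-LMO2 minus Tal1, was −2.73 for *Rgs5* (limma adjusted p = 0.0363), −2.82 for *Dcn* (0.0349) and −3.43 for *Col3a1* (0.0363). It was −2.18 for *C1qb* (limma adjusted p = 0.0363) and −2.17 for *C1qc* (0.0378). Summed stroma markers differed likewise, at 231, 472 and 367 in Tal1-LMO2 and 4267 and 2657 in Tal1 tumours, and their part in these values was not tested.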

How the results depend on the processing

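Genes called higher and lower (162 and 150) numbered 47 and 55 after quantile normalization, 376 and 297 with array weights, 102 and 73 with the 8 arrays alone, 1 and 4 with tumour 1 alone (assumed to vary like the other backgrounds), and 49 lower against Tal1-LMO2 only. Without 1 tumour they ranged from 21 to 157 higher and 27 to 157 lower. Against the other 11 backgrounds, olig1-LMO1 calls (97) numbered 62 after quantile normalization, 348 with array weights, 25 to 40 without 1 tumour and 8 with tumour 1 alone, and Tal1-side calls (1520) 771 after quantile normalization. Tumour 1 stood 4-fold above and below tumours 2 and 3 in 26 and 68 genes with a pseudocount of 1, and in 1 and 4 with the median signal. Directions turned in the genes given next. With tumour 1 alone they were −0.31 for *Hoxc4*, −0.56 for *Hoxa5*, −0.38 for *Hoxd8*, 0.12 for *Hes1* and 1.53 for *Ptcra*. Without 1 tumour, the ranges that crossed 0 were −0.05 to 0.24 for *Tcf3*, −1.06 to 0.04 for *Hes1*, −2.86 to 0.02 for *Dtx1*, −0.82 to 1.11 for *Ptcra*, −0.01 to 0.43 for *Cd8a*, −2.83 to 0.02 for *Il2ra*, −0.12 to 0.31 for *Cdkn2a* and −0.33 to 1.67 for *Hoxd8*. Against Tal1-LMO2 only, *Tcf3* gave −0.10 and *Ptcra* 0.03, and against Tal1 only *Hes1* gave 1.00. *Ptcra* gave 0.06 with array weights and 0.03 with the median signal added, where *Cdkn2a* gave −0.00. Another probe set gave 0.30 for *Tcf12* and 0.33 for *Rpl35*. The title number as a replicate block gave 137 higher and 123 lower; deviations of same-numbered tumours correlated at −0.13 to 0.25, so the numbers were not taken to pair tumours. The causes were not tested.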
